A study of Mus musculus with 10 samples.

Results

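Chromosome 7 was followed along its length in 8 mouse ovarian tumors that had been sequenced at low coverage. Its members were the bins that the authors' copy number tables placed on chromosome 7. Of 3858 such bins, 416 were set aside because they name Ccne1 (1 bin), vomeronasal receptors of the Vmn1r family (99 bins) or the Vmn2r family (82 bins), or olfactory receptors (234 bins). The 3442 bins left were 5.77% of the 59640 bins of the genome. They run from chr7:3154659 to chr7:145324086 (GRCm38/mm10), cover 57.3 Mb, and have a median length of 18624 bases. Chromosome 7 was chosen by its log2 copy ratios in these same tumors, which were already known, so the levels below are a description, and the group tests are not independent support for any of them.

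All tumors arose in C57BL/6 mice after plasmids coding for Cas9, a guide RNA and Cre were electroporated in the living animal into the epithelium of the fallopian tube, the tissue in which many high-grade serous ovarian carcinomas are thought to begin. DNA was taken from formalin-fixed, paraffin-embedded tissue. Of 4 PAX8-positive tumors, tumors 1 and 3 were labelled Lkb1-deleted and tumors 2 and 4 Lkb1-intact. Of 4 PAX8-negative tumors, tumor 1 was Lkb1-intact and tumors 2, 3 and 4 were Lkb1-deleted. PAX8 is a transcription factor of Müllerian epithelium, and LKB1 is the tumor suppressor kinase encoded by Stk11. The guides' targets, the animals' ages and whether each tumor came from a mouse of its own are not given in the sources used here, so the spread between tumors may be partly technical. A single-cell RNA library from ascites carries the same number in its label as PAX8-positive tumor 1; it is labelled Lkb1-deleted and C57BL/6, with no PAX8 status.

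A chromosome in a tumor can be lost whole, lost or gained in arms and long stretches, or altered in short stretches that hold a few genes. The log2 copy ratio is 0 where a bin has the same depth as the reference, positive for a gain and negative for a loss. In bulk DNA a deep loss in some cells cannot be told apart from a shallower loss in more cells. Mouse chromosome 7 carries growth regulators such as Fgfr2, Igf1r, Hras and Ccnd1, the imprinted clusters around Peg3, Ndn and Igf2, and large tandem gene families.

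2 kinds of sequence help to place the results. Both sets come from RefSeq (GRCm38.p6). The first set is the mature miRNAs that lie inside the short altered stretches around Fgfr2 described below. Capitals mark the seed, bases 2 to 8, by which a miRNA pairs with its targets, and no seed is shared among them. The mature arms of miR-3103 span chr7:128288370-128288434 on the minus strand, within Rusf1, in a stretch lost in PAX8-negative tumor 3. Those of miR-7061 span chr7:130908273-130908335 on the plus strand, within Plekha1, in the stretch lost in that tumor and gained in PAX8-positive tumor 2.
mmu-miR-3103-5p: gGAGGGAGgaucugcuguuag
mmu-miR-3103-3p: uAACCUCUgauccuucccacag
mmu-miR-7061-5p: uAUGGAAAuaggaggugauuuu
mmu-miR-7061-3p: uAUCCCUUuuauuuccuuuuag

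The second set shows closely alike members of a tandem family where the copy ratio was low in all 8 tumors. The Scgb2b genes encode secretoglobins, small secreted proteins that in mice include androgen-binding proteins of saliva and tears. The 150 bases upstream of 3 of them, all on the minus strand, are shown with capitals at the bases that differ from Scgb2b11. The windows lie at chr7:32211143-32211292 for Scgb2b11, chr7:33173862-33174011 for Scgb2b18 and chr7:33366320-33366469 for Scgb2b20. Scgb2b18 differed from Scgb2b11 at 2 bases and Scgb2b20 at 6. Over 250 upstream bases compared position by position, 3 of 190 pairs among 20 Scgb2b promoters were identical and 7 matched at 95% or more, while the median pair matched at 26.4%, so the 3 shown are among the most alike. The sequence of the bins themselves was not compared, and values of near-identical copies are uncertain.
Scgb2b11: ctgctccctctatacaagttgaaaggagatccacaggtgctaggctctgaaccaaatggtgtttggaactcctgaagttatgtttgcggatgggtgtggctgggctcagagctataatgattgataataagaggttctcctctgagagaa
Scgb2b18: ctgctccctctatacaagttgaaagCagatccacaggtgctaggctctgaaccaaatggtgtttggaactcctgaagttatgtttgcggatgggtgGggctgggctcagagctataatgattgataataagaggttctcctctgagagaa
Scgb2b20: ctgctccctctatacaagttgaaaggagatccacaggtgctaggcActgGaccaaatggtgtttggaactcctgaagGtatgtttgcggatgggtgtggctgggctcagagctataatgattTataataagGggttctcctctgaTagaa

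PAX8-positive tumor 3 had lost chromosome 7 along nearly its whole length, and PAX8-positive tumor 2 had lost its middle and gained its end. The other 6 tumors were close to 0 over most of it. The mean log2 copy ratio of the chromosome was -0.46 in PAX8-positive tumor 3. It was -0.02, -0.06 and -0.10 in PAX8-positive tumors 1, 2 and 4. It was -0.01, -0.02, -0.02 and -0.06 in PAX8-negative tumors 1 to 4. One tumor thus stood below the rest, and the ranges of the PAX8 groups overlapped. The mean depth of all bins was between 1.25 and 2.24 reads per base over the tumors, and the SD of the bin-to-bin noise (log2) ran from 0.166 in the quietest tumor to 0.263 in the noisiest.

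**Figure D1:**
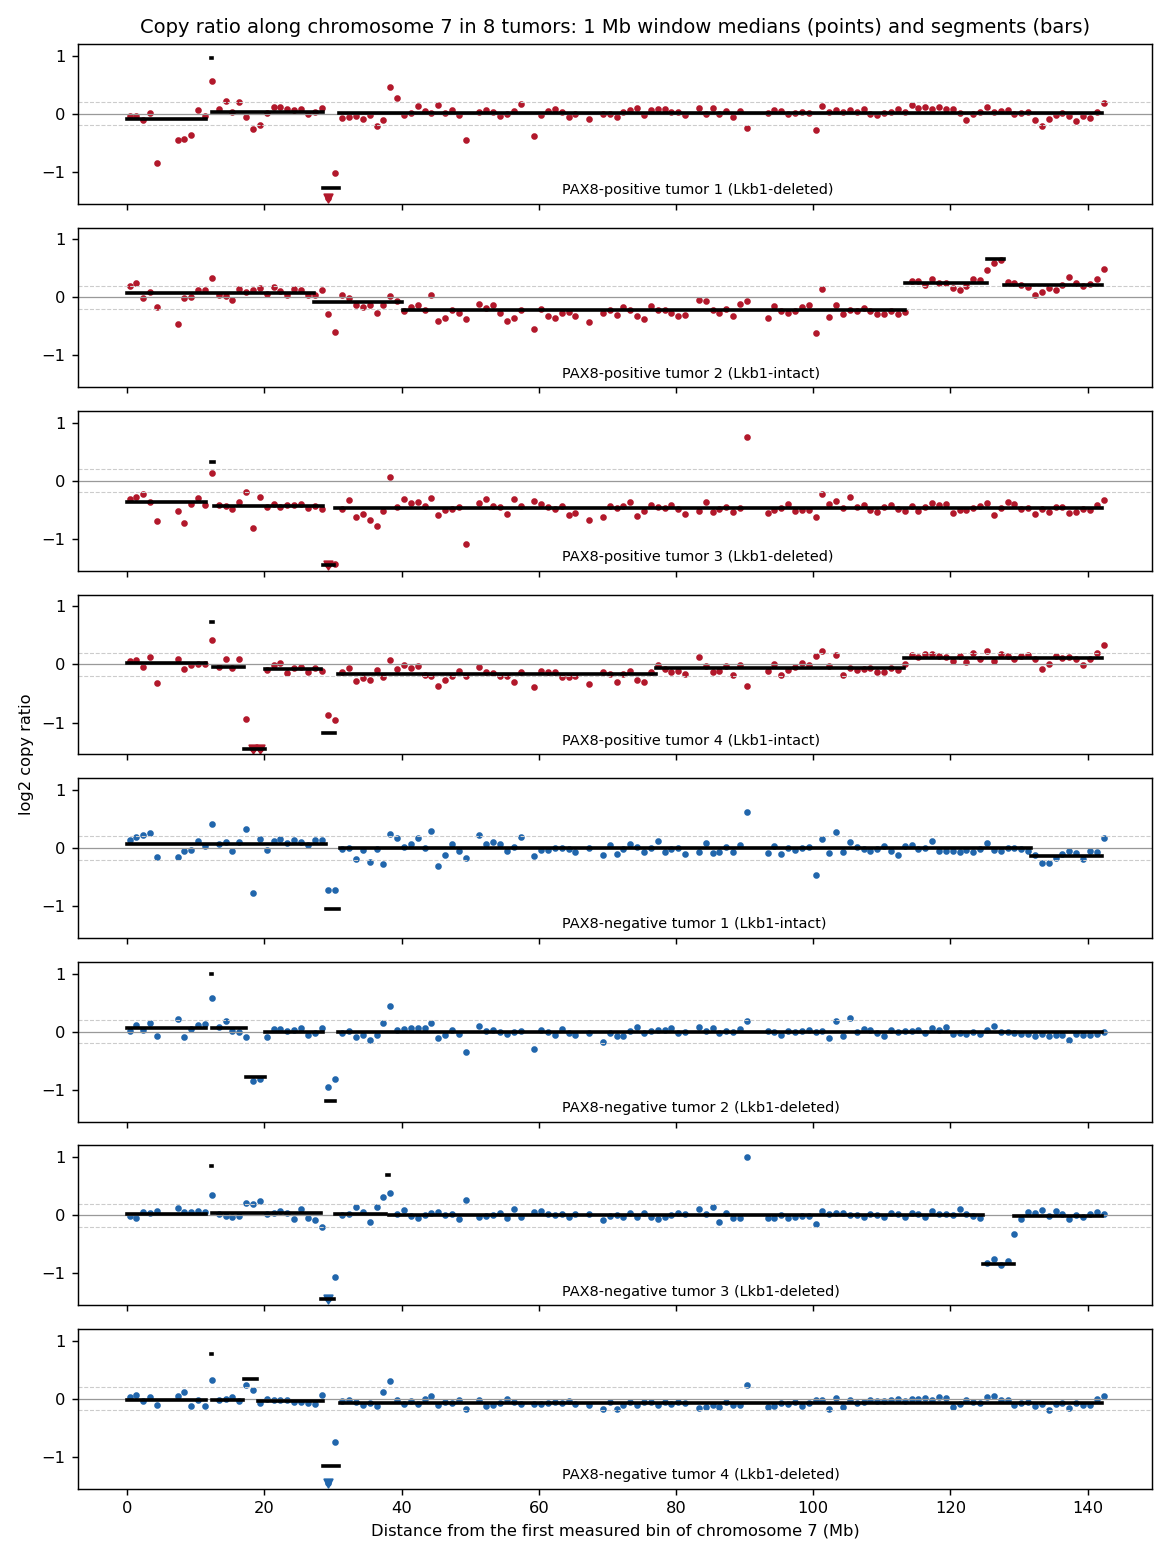
Median log2 copy ratio of each 1 Mb window (points) and mean of each segment (black bars) against distance from the first measured bin, 1 panel per tumor, red for PAX8-positive and blue for PAX8-negative. Dashed lines stand at 0.2 and -0.2, and values beyond the axis are drawn at its edge (points as triangles, segments as bars). PAX8-positive tumor 3 lies near -0.46 over most of the chromosome and PAX8-positive tumor 2 turns from loss to gain in its last part.

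The chromosome was also cut into 134 windows of 1 Mb, out of 2340 over the genome, and a window whose median bin was above 0.2 was counted as gained and below -0.2 as lost. In PAX8-positive tumor 3, 97.0% of the chromosome 7 windows were lost, against 26% of all windows of that tumor. Its only gained window, chr7:93000001-94000000, held a single bin, named for Fam181b, at 0.75; that bin also read 0.62 and 1.01 in PAX8-negative tumors 1 and 3. In PAX8-positive tumor 2, 38.8% of windows were lost and 16.4% gained, near its shares over all chromosomes, 32.1% and 15.6%. PAX8-positive tumor 1 had 9.70% lost, below its 30.3% over all chromosomes. PAX8-positive tumor 4 had 17.2% lost against 16.4%. These 4 tumors therefore differed in how chromosome 7 stood within their own profiles.

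The PAX8-negative tumors had few altered windows. The lost share was 6.72%, 4.48%, 5.22% and 1.49% in tumors 1 to 4, against 6.24%, 10%, 1.58% and 7.31% over all chromosomes. The gained share was 6.72%, 2.99%, 5.22% and 2.99%, against 3.89%, 3.46%, 2.35% and 5.26%. In PAX8-positive tumors 1, 3 and 4 the gained share was 3.73%, 0.75% and 3.73%, below the 15.8%, 21.9% and 18.9% over all chromosomes.

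**Figure D2:**
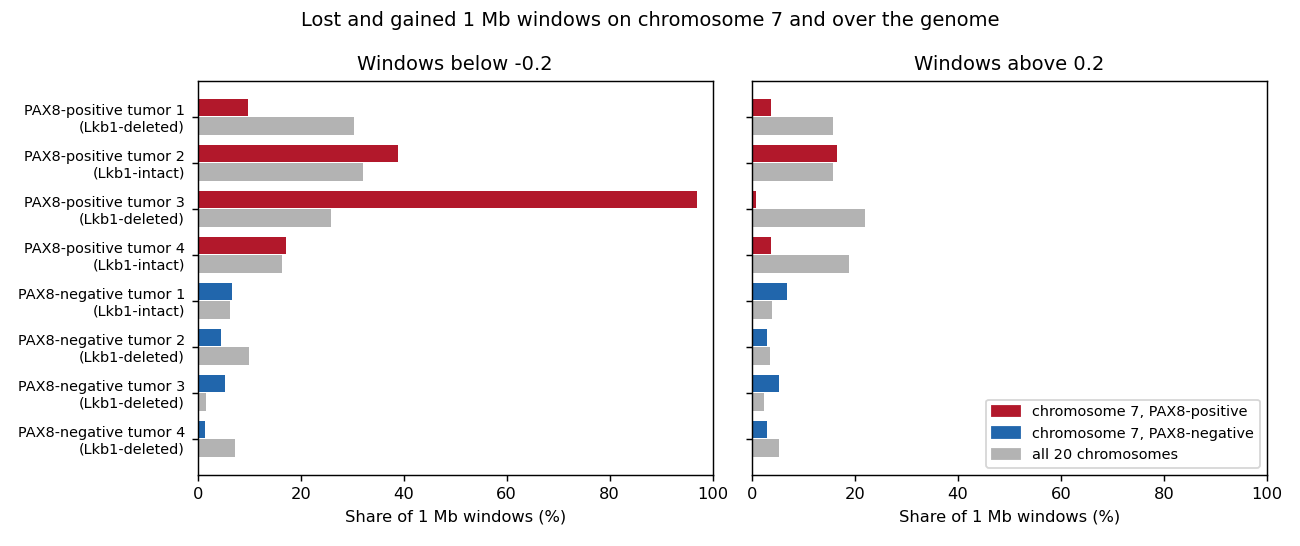
Share of 1 Mb windows (%) below -0.2 (left) and above 0.2 (right) on chromosome 7 (red PAX8-positive, blue PAX8-negative) and on all 20 chromosomes (grey), 1 pair of bars per tumor. The bar for lost windows reaches 97.0% in PAX8-positive tumor 3 and stays at or below 38.8% in the others.

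The loss in PAX8-positive tumor 3 ran along nearly the whole chromosome. Each tumor was divided into segments of like bins by penalised least squares, and 99.6% of its member bins fell in segments below -0.2. The long segments had means of -0.36 over 168 bins at chr7:3154659-14665996, -0.44 over 472 bins at chr7:15865948-31705757, and -0.47 over 2773 bins at chr7:33518482-145324086. Between them lay short segments at 0.33 over 15 bins (chr7:15388722-15839678) and -2.16 over 11 bins (chr7:31712666-33374559). The mean of -0.46 corresponds to a depth ratio of 0.725. Of 1532 protein-coding genes with a value (the median of a gene's bins), 1274 or 83.2% were below -0.2 in this tumor, against 30.8% of its genes on all chromosomes. Genes above 0.2 numbered 24, against 26.9% of its genes on all chromosomes.

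3 genes with many bins read somewhat below the chromosome's mean of -0.46 in PAX8-positive tumor 3. Igf1r, the receptor for insulin-like growth factors, read -0.62 over 15 bins there. In the other tumors, PAX8-positive 1, 2 and 4 and PAX8-negative 1 to 4 in that order, Igf1r read -0.02, -0.33, -0.31, -0.07, 0.01, -0.03 and -0.10. Only PAX8-positive tumors 2 and 4 joined it below -0.2. Ntrk3, a neurotrophin receptor kinase covered by 22 bins, read -0.54 in PAX8-positive tumor 3, -0.38 in tumor 2 and -0.27 in tumor 4; the 5 remaining tumors stayed at -0.07 to 0.07. Mgmt, which removes alkyl groups from guanine in DNA, read -0.54 over 13 bins in PAX8-positive tumor 3. Its values were -0.09, 0.14 and -0.05 in PAX8-positive tumors 1, 2 and 4 and -0.25, -0.04, 0.05 and -0.09 in the PAX8-negative tumors, so PAX8-negative tumor 1 was also below -0.2. These 3 genes were chosen after their values were seen, for their number of bins.

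PAX8-positive tumor 2 held 6 segments. From chr7:3154659 to chr7:30417585 the mean was 0.08 over 610 bins, and the next segment, ending at chr7:43192109, stood at -0.08. With bins under 5 kb left out, there was no break between them, and the joined segment stood at 0.08. With each bin's median over the 8 tumors subtracted, the first segment ended at chr7:38528193 and stood at 0.07. A loss with a mean of -0.23 then ran over 73.2 Mb and 1774 bins, chr7:43296198-116522476, from Zfp715 to Nucb2. Beyond it the chromosome was gained to its end, with means of 0.25 at chr7:116522477-128461717 (350 bins, Nucb2 to Tial1), 0.65 at chr7:128523617-131043523 (65 bins) and 0.21 at chr7:131043524-145324086 (466 bins). In all, 51.5% of member bins lay in lost segments and 25.6% in gained ones.

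The gained end of PAX8-positive tumor 2 holds the mouse counterparts of the human 11q13 amplicon, a stretch with Ccnd1 that is amplified in several human carcinomas. Of 13 of these genes with a value, 12 were above 0.2 and 0 below -0.2 in this tumor, with a median of 0.35; in the same tumor 22.6% of genes on all chromosomes were above 0.2. In PAX8-positive tumor 4, 6 of the 13 were above 0.2 and 0 below -0.2 (median 0.19), against 25.4% of its genes on all chromosomes. These genes lie in the raised last part of the chromosome in both tumors, so their counts restate the level of that part. In the same segment of PAX8-positive tumor 4, 20 of the 52 genes from Zfp668 to Chst15 were above 0.2. In PAX8-positive tumor 3 all 13 were below -0.2 (median -0.42), as were 83.2% of all genes of its chromosome 7, and in PAX8-positive tumor 1 the median was 0.06. The medians were -0.09, -0.08, -0.02 and -0.01 in PAX8-negative tumors 1 to 4. Ccnd1, which encodes cyclin D1, read -0.10, 0.32, -0.36 and 0.48 in PAX8-positive tumors 1 to 4 and -0.18, -0.16, -0.20 and -0.10 in PAX8-negative tumors 1 to 4, and was named after its values were seen. PAX8-positive tumors 2 and 4 were thus the only ones in which it was above 0.2.

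The counterparts of human 11q14, which lie in the stretch lost in PAX8-positive tumor 2, showed the opposite side of that profile. Of 21 genes, 10 were below -0.2 and 0 above 0.2 in this tumor (median -0.20), where 33.8% of its genes on all chromosomes were below -0.2. In PAX8-positive tumor 3, 19 of 21 were below -0.2 (median -0.55), again beside 83.2% of the chromosome's genes. The medians in the 6 other tumors lay between -0.12 and 0.00.

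A step in level between Pik3c2a and Nucb2 was present in both Lkb1-intact PAX8-positive tumors. PAX8-positive tumor 4 changed level between chr7:116334195 and chr7:116337266, at Pik3c2a, a phosphoinositide kinase of membrane traffic, and PAX8-positive tumor 2 changed at chr7:116522477, in Nucb2, the precursor of nesfatin. The breakpoints were 185 kb apart. From the 20 Mb before to the 11 Mb after, the median of the bins went from -0.24 to 0.25 in PAX8-positive tumor 2, a step of 0.49, and from -0.07 to 0.15 in PAX8-positive tumor 4, a step of 0.21. The step was 0.02 and 0.03 in PAX8-positive tumors 1 and 3. In PAX8-negative tumors 1 to 4 it was -0.00, -0.01, 0.03 and 0.05. The medians rest on 562 bins before and 312 after. PAX8-negative tumor 1, also Lkb1-intact, showed no such step.

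Apart from this step, PAX8-positive tumor 4 was lower in its middle, with a mean of -0.17 over 951 bins at chr7:33943003-80232813, -0.07 up to chr7:116334195 and 0.12 over 888 bins from chr7:116337266 to the end. None of these long segments passed 0.2 in either direction. The long segments of PAX8-positive tumor 1 had means of -0.08, 0.03 and 0.01, and those of PAX8-negative tumor 2 were flat. PAX8-negative tumor 1 stood at -0.13 over the last 299 bins, from chr7:134856945 in Dock1, a guanine nucleotide exchange factor for Rac. With bins under 5 kb left out, this tumor had no break there, and its segment from chr7:28104321 to the end stood at 0.003. With each bin's median over the 8 tumors subtracted, its last segment began at chr7:113333549 and stood at -0.04. PAX8-negative tumor 4 lay at -0.07 over its longest segment.

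A short stretch around Fgfr2 was altered in opposite directions in 2 tumors. PAX8-positive tumor 2 had the short gain named above, with a mean of 0.65 over 2.52 Mb and 15 genes from Bag3 to Dmbt1. PAX8-negative tumor 3, with neighbouring segments at -0.00 before and -0.01 after, had a short loss with a mean of -0.84 over 4.62 Mb at chr7:127863048-132486982, with 165 bins and 52 genes from Zfp668 to Chst15. All 15 genes of the gain lie inside the loss, namely Bag3, Inpp5f, Mcmbp, Sec23ip, Plpp4, Wdr11, Fgfr2, Ate1, Gm4275, Nsmce4a, Tacc2, Btbd16, Plekha1, Htra1 and Dmbt1. These segments were picked for their levels, so what follows describes them.

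Over the 65 bins of the short gain, the median log2 copy ratio was 0.64 in PAX8-positive tumor 2 and -0.82 in PAX8-negative tumor 3, depth ratios of 1.56 and 0.565. It was 0.04, -0.47 and 0.18 in PAX8-positive tumors 1, 3 and 4 and -0.03, 0.01 and -0.01 in PAX8-negative tumors 1, 2 and 4. The value of PAX8-positive tumor 3 was that of its whole chromosome. In PAX8-positive tumor 2 all 65 bins (100%) were above 0.2, and in PAX8-negative tumor 3, 64 of the 65 (98.5%) were below -0.2. The edges of the loss were sharp: in PAX8-negative tumor 3 the median was -0.01 over the 1 Mb before it and 0.00 over the 1 Mb after it, and 163 of the 165 bins within it (98.8%) were below -0.2. By gene, the 52 genes of the loss read -1.27 to -0.34 in this tumor, and Stx4a before it and Oat after it read -0.23 and -0.28.

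**Figure D3:**
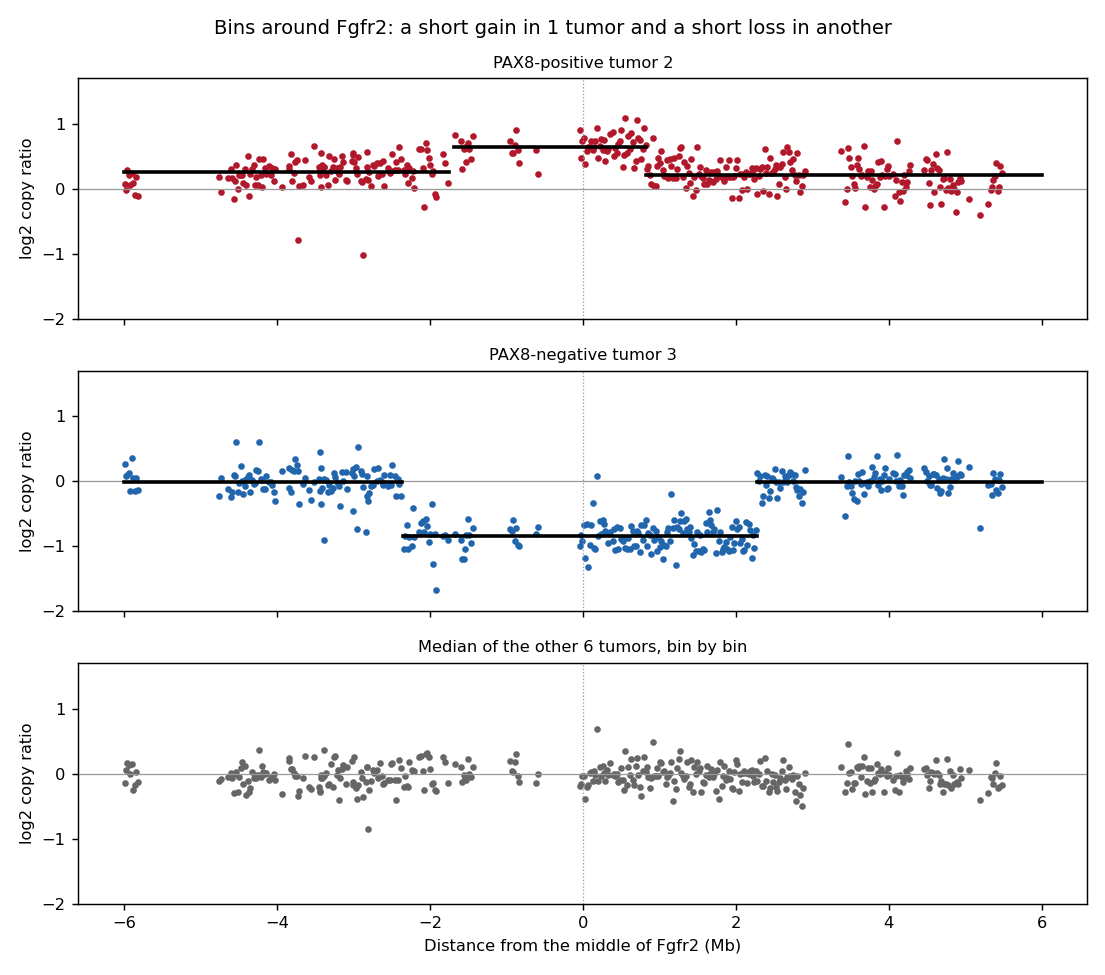
Log2 copy ratio of each bin within 6 Mb of the middle of Fgfr2 in PAX8-positive tumor 2 (top), in PAX8-negative tumor 3 (middle) and as the median of the other 6 tumors (bottom), with black bars for segment means. The gain at 0.65 and the longer loss at -0.84 cover Fgfr2, and the median of the other tumors stays near 0.

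Fgfr2, at chr7:130162451-130266808, encodes a receptor for fibroblast growth factors and is covered by 6 bins. It read -0.11, 0.66, -0.52 and 0.00 in PAX8-positive tumors 1 to 4 and -0.05, -0.22, -0.88 and -0.21 in PAX8-negative tumors 1 to 4. Its bins lay between 0.39 and 0.91 in PAX8-positive tumor 2 and between -1.18 and -0.65 in PAX8-negative tumor 3, so the bins of these tumors did not overlap. Tacc2, a centrosome-associated protein covered by 12 bins and named after its values were seen, read 0.66 and -0.91 in these tumors, and -0.39 to 0.25 in the other 6. Bag3, a co-chaperone of HSP70, read 0.82 and -0.81 in them, -0.32 in PAX8-positive tumor 3 and 0.13 to 0.27 in the others. Dmbt1, a mucin-like protein of epithelia, stood at the far edge of the gain, with 0.33 in PAX8-positive tumor 2 and -0.81 in PAX8-negative tumor 3.

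The part of the loss outside the gain set the same tumor apart. Chst15, a sulfotransferase of chondroitin sulfate at the far end of the loss, read -0.92 over 6 bins in PAX8-negative tumor 3, 0.07, 0.21, -0.31 and 0.15 in PAX8-positive tumors 1 to 4, and 0.05, -0.09 and -0.03 in the other PAX8-negative tumors. Bub3, a spindle checkpoint protein, read -0.65 in PAX8-negative tumor 3 and -0.34 to 0.19 elsewhere. Kat8, a histone acetyltransferase, and Prss8, the epithelial protease prostasin, share 1 bin, which read -1.04 in PAX8-negative tumor 3 and -0.87 in PAX8-positive tumor 3. It read -0.36 to 0.10 in the other 6 tumors. Prss8 and Kat8 together count as a single measurement.

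Of 44 breakpoints over the 8 tumors (3 to 8 per tumor), only 10 separated segments of at least 60 bins on both sides. The others bounded a shorter segment on at least one side, and 36 of the 44 had a breakpoint of another tumor within 1 Mb. With each bin's median over the 8 tumors subtracted, an alternative added after the data were seen, 24 breakpoints were called. They are not a subset of the 44, since all 8 tumors then had one within 4 Mb of the step between Pik3c2a and Nucb2. Before the subtraction, that step was only -0.01 to 0.05 in the tumors other than PAX8-positive tumors 2 and 4. The subtracted medians include those 2 tumors, so such a break cannot be read as a step of the tumor itself.

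Among the places altered alike in several tumors were blocks of tandem gene families. The Obox block, homeobox genes expressed in oocytes and early embryos, had 10 bins at chr7:15388722-15581937. Its median was 0.89, 0.42, 0.51 and 0.85 in PAX8-positive tumors 1 to 4 and 0.51, 0.94, 0.85 and 0.77 in PAX8-negative tumors 1 to 4. It was positive in all 8 tumors, PAX8-positive tumor 3 included. The Gm5592 block of 9 bins at chr7:40987544-41290183 read 0.80, 0.11, 0.45 and 0.20 in the PAX8-positive tumors and 0.42, 0.66, 0.72 and 0.44 in the PAX8-negative ones. In 7 of the 8 tumors it was more than 0.2 above the chromosome's level.

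The block of Scgb genes, whose promoters are shown above, was low in all 8 tumors. Its 14 bins at chr7:31712666-34013942 had medians of -1.30, -0.29, -1.78 and -0.99 in PAX8-positive tumors 1 to 4 and -0.77, -0.53, -1.07 and -1.08 in PAX8-negative tumors 1 to 4. PAX8-positive tumor 2 was the highest and PAX8-positive tumor 3 the lowest. These bins had a median length of 1646.5 bases and covered 1.01% of the block, so little of it was measured. Scgb2b11 read -1.69, -0.24, -1.23 and -0.49 in the PAX8-positive tumors and -0.77, -0.35, -0.70 and -1.53 in the PAX8-negative ones. Scgb2b20 read -1.30, 0.21, -1.10 and -0.66, then -0.61, -1.09, -1.09 and -1.79. Scgb2b20 in PAX8-positive tumor 2 was the only positive value among these 16, and Scgb2b18 has no bin with a value.

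A block at chr7:20232909-23278900 separated single tumors from the rest. It holds 32 bins, all named for Gm genes (predicted genes without an assigned role), among 42 bins of set-aside receptor genes. Its median was -2.25 in PAX8-positive tumor 4, where 6 of the 32 bins had a depth of 0 and the other 26 were all below -0.2. It was -0.80 in PAX8-negative tumor 2. It was -0.33 in PAX8-positive tumor 3, above that tumor's median chromosome 7 bin of -0.45. In PAX8-positive tumors 1 and 2 it was -0.18 and 0.11, and in PAX8-negative tumors 1, 3 and 4 it was 0.00, 0.27 and 0.15. The block was more than 0.2 below the chromosome's level in 3 tumors, PAX8-positive tumors 1 and 4 and PAX8-negative tumor 2. The bins had a median length of 923 bases and covered 3.17% of the block. Bins of this kind scattered more: the median scatter over tumors was 0.476 for bins under 5 kb, against 0.220 for bins of 15 kb or more, and the part of bin length in these values was not tested.

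**Figure D4:**
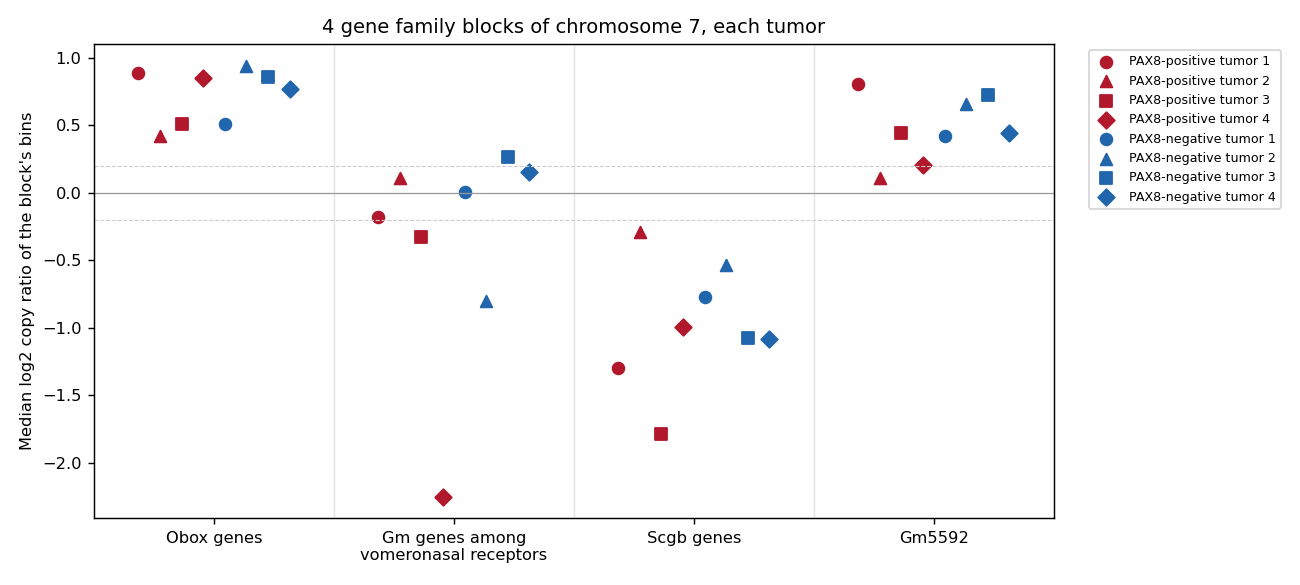
Median log2 copy ratio of the bins of 4 gene family blocks, 1 point per tumor (red PAX8-positive, blue PAX8-negative, dashed lines at 0.2 and -0.2). The Obox block lies above 0.4 and the Scgb block below -0.2 in all 8 tumors, and PAX8-positive tumor 4 stands at -2.25 in the block of Gm genes.

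Recurrence over the tumors was counted against the whole genome. Of the 134 windows, 2 (1.49%) were lost in all 8 tumors, against 0.171% of all windows; the same 2 were the only ones lost in at least 6 tumors, against 1.41%. They were the windows from 32 and 33 Mb, both in the Scgb block, and the first held 3 bins. Segments needed at least 8 bins, and the block's 14 bins, with a median length of 1646.5 bases, hold fewer than 8 of 5 kb or more. With bins under 5 kb left out, a segment of Scgb bins alone was therefore not possible in any tumor. That setting cannot test the block. In the window from 33 Mb, with 7 bins, the values ran from -1.43 to -0.61. 1 window (0.746%), from 15 Mb in the Obox block, was gained in at least 6 tumors, against 0.342%, and 0 were gained in all 8, against 0.0855%. Windows lost in at least 4 tumors were 7 (5.22%, against 6.28%), and windows gained in at least 4 were 3 (2.24%, against 2.74%), shares near those of the genome. Among 3426 bins with a value in all 8 tumors, 17 (0.496%) were above 0.2 in every tumor, against 0.567% of all bins, and 8 of the 17 were Obox bins. 14 bins (0.409%) were below -0.2 in every tumor, against 0.274%; these included Muc2, Herc2, Me3 and Scgb2b11. Deviations of the bins from their tumor's local level were also shared between tumors. Over 2772 bins of 15 kb or more, Pearson's r between 2 tumors had a median of 0.50 (0.17 to 0.67 over 28 pairs). The tumors share the bins, and the part of base composition in these values was not tested. No normal sample was used here to set these shared bins against.

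The lists of genes, which were chosen with earlier results of these data known, were read in the same way. Of the 1532 genes of the chromosome, 298 (19.5%) were above 0.2 in at least 3 tumors, against 22.6% of all genes, and 585 (38.2%) were below -0.2 in at least 3, against 32%. By tumor, genes above 0.2 and below -0.2 numbered 338 and 292 in PAX8-positive tumor 1, where 21% and 34.3% of all genes were; 469 and 435 in tumor 2 (22.6% and 33.8%); and 281 and 382 in tumor 4 (25.4% and 23.4%). They numbered 376 and 363 in PAX8-negative tumor 1 (18% and 23.2%), 232 and 282 in tumor 2 (13.5% and 20.7%), 219 and 258 in tumor 3 (11.8% and 12%), and 127 and 316 in tumor 4 (11.5% and 16.7%). PAX8-positive tumor 3, with 1274 genes below -0.2, enters the count of genes lost in at least 3 tumors. Of all 1532 genes, 1016 rest on 1 bin. The 142 genes of the lists had 16.2% gained and 41.5% lost, and their gene means had a median of -0.10, against -0.08 for all genes of the chromosome.

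Among growth signalling genes and oncogenes, 14 of 26 (53.8%) were lost and 2 (7.69%) gained in at least 3 tumors. Their median gene mean was -0.12. Of all genes of the chromosome, 38.2% were lost and 19.5% gained in at least 3 tumors. In PAX8-positive tumor 3 alone, 83.2% of the chromosome's genes were below -0.2, which enters the lost count of every list. Hras, a small GTPase of the mitogen pathway, read -0.39, 0.45, -0.35 and -0.55 in PAX8-positive tumors 1 to 4 and -0.27, -0.60, 0.29 and 0.15 in PAX8-negative tumors 1 to 4. It was below -0.2 in 5 tumors and above 0.2 in 2, with both directions in both PAX8 groups. Rras, a related GTPase, read -0.86 in PAX8-positive tumor 2 and 0.52 in PAX8-positive tumor 1, with -0.56 to 0.46 in the others. Both rest on 1 bin.

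Among tumor suppressors and cell death genes, 7 of 21 (33.3%) were gained and 3 (14.3%) lost in at least 3 tumors. The shares over all genes of the chromosome were 19.5% gained and 38.2% lost. Bbc3, which encodes the death protein PUMA, was above 0.2 in 5 tumors, with 0.57, 0.43, -0.26 and 0.17 in PAX8-positive tumors 1 to 4 and 0.59, 0.41, 0.15 and 0.26 in PAX8-negative tumors 1 to 4. Only PAX8-positive tumor 3 was below 0. Among DNA repair genes, 9 of 22 (40.9%) were lost and 3 (13.6%) gained in at least 3 tumors. All 22 were below -0.2 in PAX8-positive tumor 3, where 83.2% of the chromosome's genes were. Ercc1, a subunit of the nuclease of nucleotide excision repair, was above 0.2 in 6 tumors; it read 0.32, 0.45, -0.41 and 0.31 in the PAX8-positive tumors and 0.56, 0.40, -0.10 and 0.27 in the PAX8-negative ones. Pold3, a subunit of DNA polymerase delta, read -1.08 in PAX8-positive tumor 3, -0.68 in tumor 2 and -0.44 to -0.04 in the others. Fancf, of the Fanconi core complex, read -0.95 in PAX8-positive tumor 3, -0.56 in tumor 2 and -0.32 to -0.12 in the others.

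Among imprinted genes, 13 of 29 (44.8%) were lost and 5 (17.2%) gained in at least 3 tumors, against 38.2% and 19.5% of the chromosome's genes. Phlda2, a growth restraint of the placenta, read -0.73, -0.91, -0.85 and -0.95 in PAX8-positive tumors 1 to 4 and -3.29, -0.20, 0.30 and -0.50 in PAX8-negative tumors 1 to 4. Cdkn1c, a cyclin-dependent kinase inhibitor of the same cluster, read -0.14, 0.74, 0.56 and 0.55, then -0.70, -0.06, 0.58 and 0.21. These neighbours did not move together, and each rests on 1 bin. Ndn, of the Prader-Willi cluster, was below -0.2 in 6 tumors, with -0.70, -1.35, -0.12 and -1.18, then -1.29, -0.36, -0.60 and 0.15. Tnfrsf23, a decoy receptor, was above 0.2 in 7 tumors and read 0.13 in PAX8-negative tumor 3; it was 0.43 in PAX8-positive tumor 3, whose chromosome was at -0.46.

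Among epithelial genes, 10 of 21 (47.6%) were lost and 6 (28.6%) gained in at least 3 tumors, against 38.2% and 19.5% of the chromosome's genes. Muc2, a secreted mucin, was below -0.2 in 7 tumors by its gene median and read -0.13 in PAX8-negative tumor 3, while its neighbour Muc6 read 0.60, 0.68, -0.16 and 0.61 in the PAX8-positive tumors and 0.56, 0.33, 0.19 and 0.43 in the PAX8-negative ones. Lsr, a receptor of tricellular junctions, was below -0.2 in 6 tumors, from -0.80 in PAX8-positive tumor 3 to -0.25 in PAX8-positive tumor 2, and read -0.12 and -0.16 in PAX8-negative tumors 1 and 3. Of 3 kinases that LKB1 phosphorylates, Brsk1 was gained in at least 3 tumors, Brsk2 was lost in at least 3, and Mark4 was neither. Of the 11q13 counterparts 3 of 13 were gained and 3 lost in at least 3 tumors, and of the 11q14 counterparts 0 of 21 were gained and 9 lost. Of the 30 list genes taken up for their mean absolute log2 copy ratio, 27 rest on 1 bin.

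Ccne1 was set aside; its bin read 0.98, -0.30, 4.08 and 4.78 in PAX8-positive tumors 1 to 4 and 5.14, 3.60, -0.06 and 0.03 in PAX8-negative tumors 1 to 4. The medians of the 22 neighbouring bins were between -0.57 and -0.01.

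Whether the PAX8 groups differ was asked over tumors, with an exact two-sided permutation test over all 70 splits and Benjamini-Hochberg adjustment over 20 chromosomes. The group tests take the tumors as independent, which the sources used here do not state. The share of lost windows was 40.7% ± 39.5 (SD, n = 4) in PAX8-positive and 4.48% ± 2.20 (SD, n = 4) in PAX8-negative tumors (exact p = 0.0286, adjusted 0.286), where 0.0286 is the smallest p the design allows. The groups did not overlap, the lowest PAX8-positive tumor having 9.70% and the highest PAX8-negative one 6.72%. That separation depended on the windows and the threshold: the exact p was 0.114 with windows of at least 10 bins, 0.257 with 5 Mb windows and 0.0857 at a threshold of 0.1. The difference of 36.2 percentage points rested largely on PAX8-positive tumor 3 and was 17.4 without it. Over all chromosomes the lost share also separated the groups, at 16.4% to 32.1% in PAX8-positive and 1.58% to 10% in PAX8-negative tumors. The mean log2 copy ratio was -0.16 ± 0.20 (SD, n = 4) against -0.03 ± 0.02 (SD, n = 4; exact p = 0.0571, adjusted 0.429), a difference of -0.14 that was -0.04 without PAX8-positive tumor 3. The share of windows lost or gained was 46.8% ± 38.5 against 8.96% ± 3.85 (SD, n = 4 each; exact p = 0.0571, adjusted 0.114). The mean number of breakpoints was 5.25 ± 1.89 against 5.75 ± 2.06 (SD, n = 4 each; exact p = 0.886). No difference passed the adjusted threshold of 0.05. By size, the chromosome 7 difference ranked 3 of 20 chromosomes in lost share and 9 of 20 in altered share.

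Window by window, limma on all 2340 windows called 0 of the 134 chromosome 7 windows by PAX8 status (0% of all windows called). At an unadjusted p under 0.05, 12 chromosome 7 windows were lower and 0 higher in PAX8-positive tumors, out of 207 windows over the genome. That direction rested on PAX8-positive tumor 3: without it, 4 of 8 such windows were lower in PAX8-positive tumors, out of 266 over the genome. The lowest adjusted p was 0.397, at chr7:7000001-8000000 (difference -0.44, SE 0.15). Without PAX8-positive tumor 4, limma called 1 window, chr7:10000001-11000000, at a difference of -0.54 (SE 0.10, adjusted p = 0.0254); it holds 4 bins. With 1 tumor left out, the windows at an unadjusted p under 0.05 numbered from 3, of 107 over the genome (without PAX8-negative tumor 3), to 51, of 292 (without PAX8-positive tumor 1).

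By Lkb1 status (5 deleted, 3 intact, 56 splits, smallest p 0.0179), the mean log2 copy ratio was -0.12 ± 0.20 (SD, n = 5) against -0.06 ± 0.05 (SD, n = 3; exact p = 0.875, adjusted 0.982). The difference of -0.06 became 0.03 without PAX8-positive tumor 3. The altered share was 26.7% ± 39.9 (SD, n = 5) in deleted and 29.9% ± 22.3 (SD, n = 3) in intact tumors (exact p = 0.893, adjusted 1). Breakpoints averaged 5.6 ± 1.67 (SD, n = 5) and 5.33 ± 2.52 (SD, n = 3; exact p = 1). limma called 0 chromosome 7 windows, against 0.0427% of all windows, with 6 at an unadjusted p under 0.05, out of 95 over the genome. The lowest adjusted p was 0.577 at chr7:32000001-33000000 in the Scgb block, where deleted tumors averaged -1.48 and intact tumors -0.62 over 3 bins.

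The ascites library gives copy number regions inferred by the authors for its tumor cells. Of 29 regions, 6 lay on chromosome 7, and their states were read as gain above 3 and loss below 3, a reading that the table's header does not state. The gains covered 7.26 Mb in 3 adjoining regions: state 4 at chr7:28350652-28866284, state 5 at chr7:28893248-31042481 and state 4 at chr7:31051678-35647521. The losses, all state 2, covered 43.0 Mb at chr7:16915379-25671368, chr7:44997648-66173798 and chr7:120635176-133721145. With 1 library there is no test, and the same label number does not say that the ascites cells and PAX8-positive tumor 1 came from one mouse.

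In the DNA of PAX8-positive tumor 1, the mean of 1 Mb windows weighted by their overlap was 0.02, -0.00 and 0.04 over the losses and 0.09, 0.01 and -0.62 over the gains, in order along the chromosome. The low value belongs to the last gain, which contains the Scgb block. As medians of bins, the values were 0.09, 0.04 and 0.03 over the losses and 0.13, 0.02 and -0.08 over the gains; the values below are medians of bins. Over the 2.15 Mb region of state 5, the medians were 0.04, -0.45 and -0.08 in PAX8-positive tumors 2 to 4 and 0.12, -0.02, -0.06 and -0.07 in PAX8-negative tumors 1 to 4. No tumor was above 0.2 there, and none was over the other gains. Over the last loss, which contains Fgfr2, PAX8-positive tumor 2 read 0.29 and PAX8-positive tumor 3 -0.45. PAX8-negative tumor 3, whose short loss lies inside this region, read -0.15. Over the middle loss, PAX8-positive tumors 2 and 3 read -0.24 and -0.44.

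**Figure D5:**
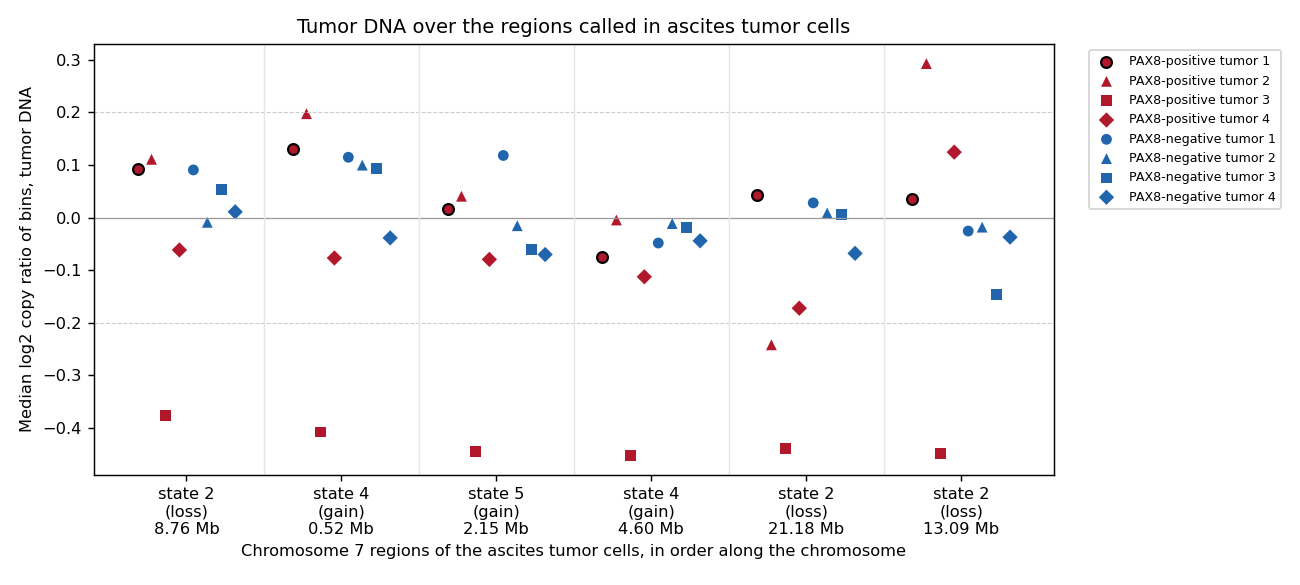
Median log2 copy ratio of tumor DNA bins over the 6 chromosome 7 regions of the ascites tumor cells, in order along the chromosome, 1 point per tumor (red PAX8-positive, blue PAX8-negative, black outline for PAX8-positive tumor 1). PAX8-positive tumor 1 lies between -0.08 and 0.13 in all 6, and PAX8-positive tumor 3 is below -0.2 in all 6.

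Genes that mark the tumor cell cluster were a larger share of the genes in the ascites gains than in the losses, on chromosome 7 and elsewhere. Of 56 genes listed in the gain regions, 14 (25%) were among the 572 markers of that cluster in the authors' deposited table, against 4 of 163 (2.45%) in the loss regions. On the other chromosomes the shares were 14.4% (116 of 806 genes) in gains and 3.59% (14 of 390) in losses. The region of state 5 held 11 of the 14 among its 30 genes, the first gain 2 among 12, and the last gain 1 among 14. No test was made with 1 library. Dmkn, a secreted protein of epidermis, had a natural log fold change of 2.48 in the authors' deposited table, Lsr 2.03, and Spint2, an inhibitor of epithelial serine proteases, 1.35. Lgals7, an epithelial galectin in the neighbouring region of state 4, had 2.74 in the authors' deposited table. The regions were called from the same RNA as the markers, and the part of these genes' expression in the calls was not tested. In tumor DNA, Lgals7 read -0.28, 0.59, -1.12 and -1.27 in PAX8-positive tumors 1 to 4 and -0.58, -0.71, -0.44 and -0.15 in PAX8-negative tumors 1 to 4, above 0.2 in 1 tumor and below -0.2 in 6, on 1 bin.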

How the data were processed

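Copy number came from the authors' deposited tables of gene-named bins, 1 table per tumor, which give a log2 copy ratio and a read depth (coverage signal) per bin, per the file headers. Reads were aligned with BWA to GRCm38/mm10 and handled with Picard, tools listed without roles in the submitters' processing notes; the copy ratio caller and its reference are not given in the sources used here, and the wild-type tissue was not analysed here. The ascites tables give a state score per region and natural log fold changes of cluster markers, as deposited by the authors (Cell Ranger and Seurat 2.3.4 in the submitters' processing notes). No count of reads was used, so depth sets precision only through the bin noise given above.

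Members, gene lists and tests were chosen with earlier results of these data known. Bins of depth 0 (16 values, with placeholder ratios of -21.06 to -19.68) were left out. Windows of 1 Mb took the median bin. Segments came from optimal partitioning (penalty 6 times the noise variance times the log of the number of bins, at least 8 bins, values clipped at 4 noise SDs). Gene values are medians of bins over RefSeq coordinates. Single values per tumor were compared by exact permutation, windows by limma 3.58.1 in R 4.3.3, with Benjamini-Hochberg adjustment. The calculations ran in Python 3.11.15 with numpy 2.4.6 and pandas 2.3.3, and were tested on simulated data. Named list genes were those past 0.2 or below -0.2 the same way in at least 3 tumors, past 1 or below -1 in any, or inside a segment of under 200 bins past 0.2 or below -0.2, to a limit of 30 by mean absolute log2 (86 met the rule). Replicate numbers were given in accession order and pair nothing. Alternatives changed the threshold, window, penalty, centring, covariate, bin filter and the tumors included.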

Additional observations from a re-analysis of the deposited data

Results flagged for a closer look

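In 36 groups of tumors tested, 8 held a sample farther from the others than Dixon's 95% critical value. Chance gives about 1 in 20, but the measures overlap and most were chosen by these same copy ratios, so the number of such groups is a description and no evidence. Among the 5 Lkb1-deleted tumors, PAX8-positive tumor 3 stood apart in 3 measures: its mean log2 copy ratio of chromosome 7 was -0.46 (the others -0.06 to -0.02), its lost share 97.0% (the others 1.49% to 9.70%) and its lost or gained share 97.8% (the others 4.48% to 13.4%).

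Among the 4 PAX8-negative tumors, tumor 3 stood apart at 3 genes of the short loss, which was picked for its level in this tumor, with -0.81 for Bag3 (the others 0.15 to 0.18), -1.03 for Inpp5f (the others -0.16 to -0.04) and -0.81 for Dmbt1 (the others -0.06 to -0.00). PAX8-negative tumor 4 had a mean log2 copy ratio of -0.0622, against -0.0186 to -0.0098 in the others of its group. PAX8-negative tumor 2 had a median of 0.76 over all 17 Obox bins, against 0.49 to 0.51 in the others of its group. Over the 10 bins of the Obox block, PAX8-negative tumors 1 to 4 read 0.51, 0.94, 0.85 and 0.77, so this flag depends on the bins taken.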

How the results depend on the processing

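For 24 results, 186 alternative values were computed. Of these, 166 kept their direction and their side of the threshold or stayed within the spread, 13 changed direction and 7 moved. The main runs called no PAX8 or Lkb1 difference on chromosome 7, so no call could be lost. No PAX8 or Lkb1 comparison of the chromosome's mean log2 copy ratio, altered share, lost share or breakpoints passed the adjusted threshold under any alternative run; the lowest adjusted p by PAX8 was 0.143 for the mean log2 copy ratio, 0.0635 for the altered share and 0.0952 for the lost share. With 1 tumor left out, the PAX8 difference ran from -0.18 to -0.04 in mean log2 copy ratio, 20.9 to 49.0 points in altered share, 17.4 to 46.5 points in lost share and -1.42 to 0.25 in breakpoints; the Lkb1 difference ran from -0.0824 to 0.0295 (reversed without PAX8-positive tumor 3), from -20.9 to 9.55 points and from -0.90 to 1.60 breakpoints. The altered share by Lkb1 became 10.2 points (from -3.13) at a threshold of 0.3. Breakpoints by PAX8 became 0.25 (from -0.50) with bins of depth 0 kept and with the penalty halved. Those by Lkb1 became -0.53 (from 0.27) with each bin's median over the 8 tumors subtracted, an alternative added after the data were seen, as was leaving out bins under 5 kb. None of these passed a test's threshold, and the cause was not tested. Windows called by PAX8 on chromosome 7 were 0 to 1 with 1 tumor left out (1 without PAX8-positive tumor 4). The 44 breakpoints became 71 with the penalty halved, 23 with it doubled and 24 with the medians subtracted. With bins under 5 kb left out, no tumor had more breakpoints than before, and PAX8-negative tumor 1 had 1 instead of 3. The short loss kept its ends in all settings, and the short gain in all except the doubled penalty, where it merged into one segment at 0.26. Over the ascites regions in PAX8-positive tumor 1, the window values of 0.02 (first loss) and -0.62 (last gain) became 0.0929 and -0.0760 as medians of bins; the cause was not tested. No paired analysis was possible because the replicate numbers were given in accession order and pair no tumors. With coverage near 1 read per base, genes on 1 bin are limited by the bin noise.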
